A study of Zea mays with 2 samples.

Results

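Maize chromosomes carry long stretches in which the authors' merged list holds no MNase hypersensitive site. Here 516 of these deserts, each longer than 250 kb, are described. A desert is the interval between 2 consecutive summits of the authors' peak list for both replicates merged. Of the 66791 intervals between neighbouring summits on the 10 chromosomes, 516 passed that limit, which is 0.773% of them. The deserts were selected on the positions of the merged summits, so their number, length and position are given as a description, with no test. The intervals nearest the limit measured 250.2 kb on the inside, on chromosome 9 at 88688502 to 88938656, and 249.9 kb on the outside, on chromosome 10 at 33467801 to 33717681.

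The study mapped open chromatin in maize (Zea mays) by MH-seq, in which micrococcal nuclease (MNase) cuts exposed DNA and the short fragments it frees are sequenced. All data come from 1 group: leaf of 10-day-old B73 plants, the inbred behind the maize reference genome, with nuclei fixed in formaldehyde and digested with 100 U of MNase. Per the protocol this is the light digestion; DNA from a heavy digestion with 900 U is described as well, but both libraries carry the 100 U label. Fragments of 40 to 100 bp were recovered. There are 2 replicates of that group, and no untreated or naked-DNA group. Leaf tissue was pooled from 10 plants per the labels. Nothing in the labels shows that the replicates came from separate harvests, and their spread may be purely technical. Positions are 1-based on B73 RefGen_v4, the build named in the submitters' processing notes. Gene annotation and sequence of that build were not used here, so genes, repeats and assembly gaps inside the deserts were not analysed here.

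Open chromatin marks DNA that regulatory proteins can reach, and it is found mainly at promoters and at distal regulatory elements. Most of the maize genome consists of transposable elements packed in closed chromatin, with genes concentrated towards the chromosome ends and sparse around the centromeres. The short arm of chromosome 6 carries the nucleolus organizer, an array of ribosomal RNA genes. These facts are background and were not measured here.

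The 3 lists differ in size. Replicate 1 held 74443 peaks, replicate 2 held 60518 peaks, and the merged list held 66801, or 31.7 summits per Mb. No peak in any list had a deposited fold enrichment below 5.00. The lowest −log10 q was not shared: merged peaks started at 8.95, replicate 1 peaks at 5.92 and replicate 2 peaks at 6.13. A desert is therefore a stretch without a merged peak, not one shown to be closed. Replicate peaks with a fold enrichment of 5.00 or more can lie inside it. Read depth is unknown. The fold enrichment and −log10 q quoted here are the authors' values for each peak and, apart from these lowest values, are compared only within a list.

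Deserts added up to 186 Mb, or 8.85% of the 2106 Mb spanned by the 10 chromosomes. Their median length was 308 kb (quartiles 273 and 387 kb), against a median of 11.1 kb for all intervals between merged summits. Most were close to the limit: 238 measured 250 to 300 kb, 165 measured 300 to 400 kb and 52 measured 400 to 500 kb. The other 61 exceeded 500 kb and together covered 41.6 Mb. Only 3 exceeded 1000 kb.

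The longest desert lay near the start of chromosome 6, at 11074734 to 13462925, and measured 2388 kb. The second ran for 1558 kb on chromosome 8 at 49881038 to 51438677, and the third for 1483 kb on chromosome 9 at 53675825 to 55158645. The fourth to the tenth in length measured 760.2 to 975 kb. They comprised 2 on chromosome 7 (59933643 to 60908308, 975 kb, and 64155030 to 64923480, 768 kb), 2 more on chromosome 9 (74990483 to 75938103, 948 kb, and 51288154 to 52140898, 853 kb) and 1 each on chromosomes 4 (98055883 to 98938740, 883 kb), 5 (105172392 to 105936396, 764 kb) and 3 (73680514 to 74440688, 760.2 kb). Chromosome 1 had its longest desert at 132401982 to 133123786, of 722 kb. Chromosome 2 had its longest at 96719547 to 97371311, of 652 kb, and chromosome 10 at 49092131 to 49667793, of 576 kb. Chromosomes 8 and 9 thus held 2 of the 3 longest deserts while holding the fewest deserts, 31 and 30.

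Deserts were concentrated in the interior of the chromosomes, left of the middle in most of them. Of the 516, 391 (75.8%) had their midpoint in deciles 3 to 6 of chromosome length, the deciles that held 26.8% of merged summits. Deserts occupied 25.2% of decile 4 and 19.8% of decile 5, against 4.37% of the first decile and 1.27% of the last. The share in deciles 3 to 6 ran from 55.4% on chromosome 6 to 87.1% on chromosome 8. The median midpoint lay at 28.6% of the length on chromosome 8 and at 28.9% on chromosome 6, and furthest along, at 50.3%, on chromosome 5. Chromosome 8 had no desert with a midpoint before 15.9% or after 55.3% of its length.

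**Figure D1:**
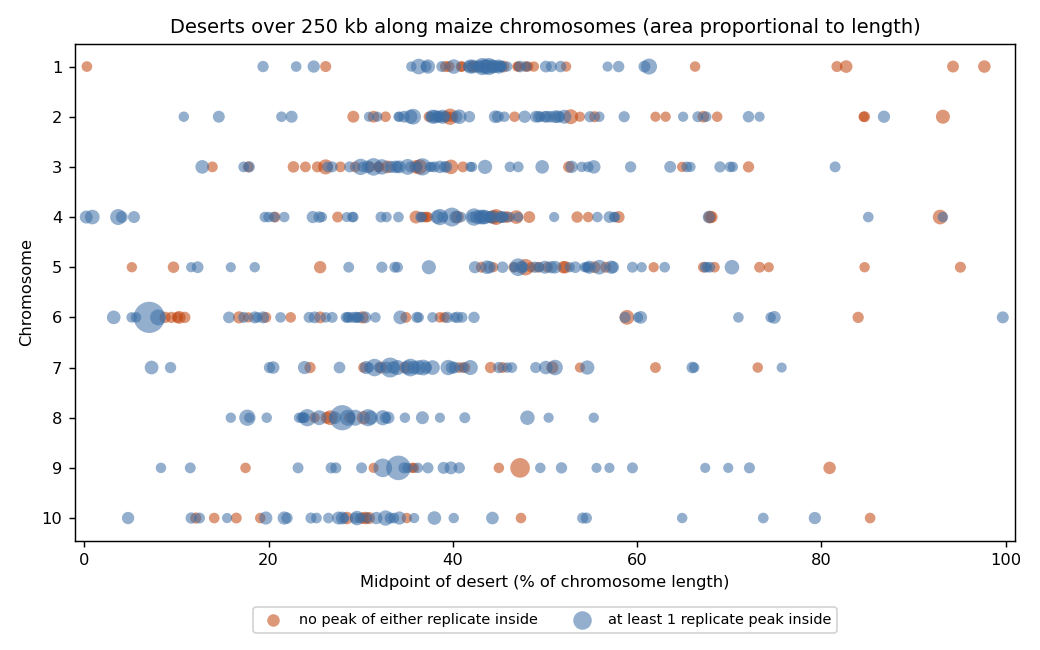
Each point is 1 of the 516 deserts, placed by its chromosome (vertical axis) and by its midpoint in percent of chromosome length (horizontal axis), with an area proportional to its length; colour shows whether a peak of either replicate lies inside. Points crowd between 20 and 60% of the length, and the largest, of 2388 kb, stands at 7.05% of chromosome 6.

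Chromosome 6 carried the largest share of its length in deserts, 11.6%, followed by chromosome 7 with 10.6% and chromosome 4 with 10.1%. Chromosome 1 had the smallest, 6.52%. Of the 19 deserts with a midpoint in a first decile, 7 were on chromosome 6, where they covered 4.65 Mb, and 5 were on chromosome 4, where they covered 2.27 Mb. Chromosomes 2, 3 and 8 had none there. Last deciles held 7 deserts over all chromosomes, the one furthest out with its midpoint at 99.7% of chromosome 6.

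The number of deserts was set against the number expected from local peak density. If the summits of a 10 Mb window fell independently at the density of that window, 203 intervals over 250 kb would arise, so the 516 observed were 2.54 times that number. The ratio was above 1 on every chromosome, from 1.52 on chromosome 8 to 3.61 on chromosome 6. In the lists of the replicates, 361 such intervals were observed against 123 expected in replicate 1, and 649 against 280.2 in replicate 2. Longer intervals exceeded expectation by more: 61 over 500 kb were observed against 10.9 expected, and 3 over 1000 kb against 0.145.

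Merged summits stand in groups at short range, which this expectation does not take into account. When summits following one another within 5 kb were counted as 1 site, the 66801 summits became 43832 sites and 507 intervals over 250 kb were expected, against the same 516 observed, a ratio of 1.02. On this count the ratio of observed to expected deserts was lowest on chromosome 8, at 0.726, and highest on chromosome 6, at 1.31. It was 0.825 on chromosome 7 and 0.916 on chromosome 9, and lay between 0.996 and 1.14 on the other 6 chromosomes. Chromosome 6 had 56 deserts against 42.9 expected, chromosome 7 had 48 against 58.2, and chromosome 8 had 31 against 42.7. The result depends on the joining distance: joining within 1, 2 or 10 kb gave 341, 415 and 745 expected intervals. Joining lowers the density put into the formula, which makes no allowance for the minimum spacing that joining imposes. Joining would therefore raise the expected number for independent summits as well. How much of the rise from 203 to 507 arose in this way was not tested.

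With joining within 5 kb, longer deserts still outnumbered the expectation. Over 300 kb, 278 were observed and 269.6 expected. Over 400 kb the numbers were 113 and 89.8, over 500 kb 61 and 35.0, over 600 kb 32 and 15.1, over 750 kb 11 and 4.84, and over 1000 kb 3 and 0.881. Both replicate lists did the same over 500 kb, with 29 observed against 15.1 expected in replicate 1 and 78 against 52.1 in replicate 2. With joining within 10 kb, 51.1 intervals over 500 kb were expected for the 61 observed. These expectations come from a formula and carry no p, and detectability along the sequence was not tested. They take the density as even within each 10 Mb window, and other window sizes were not tried for these lengths.

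**Figure D2:**
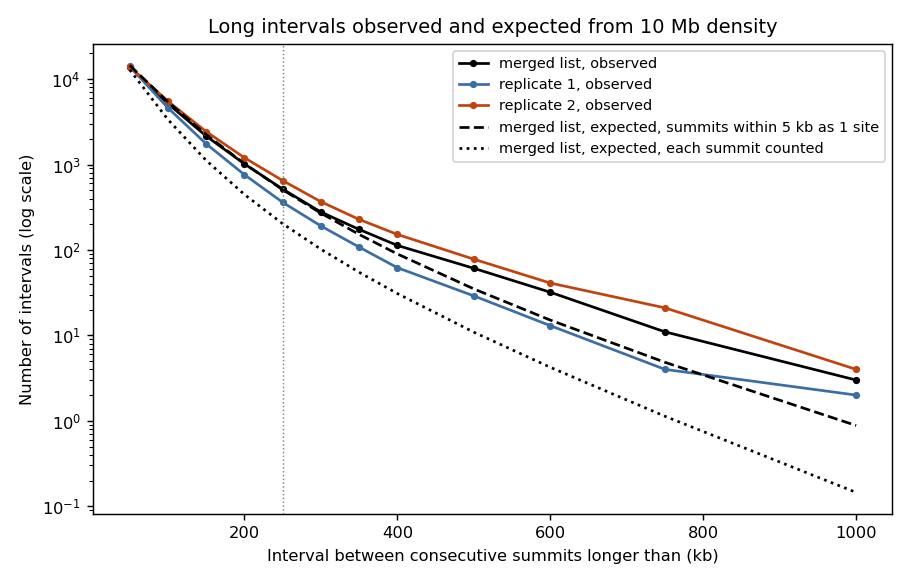
Number of intervals between consecutive summits (vertical axis, log scale) longer than the length on the horizontal axis (kb), for the merged list and both replicates (solid lines) and the expectation for the merged list from 10 Mb density, counting each summit (dotted) or summits within 5 kb as 1 site (dashed); the vertical line marks 250 kb. At 250 kb the merged list has 516 intervals, against 507 on the dashed and 203 on the dotted line, and beyond 400 kb it runs above both.

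Relative to the expected number, deserts were most frequent where peaks were dense. The 210 windows were divided into 3 equal groups by their density of merged summits. The sparsest group (7.30 to 26.0 summits per Mb) held 387 deserts and the middle group (26.3 to 36.7 per Mb) held 95, against 394 and 93.1 expected with summits joined within 5 kb. The densest group (36.8 to 66.0 per Mb) held 34 deserts against 20.3 expected. Without joining, 191, 11.4 and 0.846 were expected in the sparsest, middle and densest group. The expected number in the densest group thus depended strongly on joining, and other joining distances were not tried by group. Each desert was also measured in mean spacings, that is, its length divided by the mean distance between merged summits in the 5 Mb on either side. The median desert was 6.24 mean spacings long, with a range of 1.90 to 47.5. In 64 deserts the density on the flanks was above the 31.7 summits per Mb of all chromosomes.

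The desert of 2388 kb on chromosome 6 was the one of 47.5 mean spacings. Next came a 526 kb desert within the first percent of chromosome 4, at 1872704 to 2398392. Its flanks held 49.3 summits per Mb, and it was 25.9 mean spacings long. Chromosome 4 had 2 more of this kind near its start, at 8757447 to 9385879 (628 kb, 25.2 mean spacings) and at 298037 to 712529 (414 kb, 21.3 mean spacings). High values also occurred in the interior. The 1483 kb and 948 kb deserts of chromosome 9, with midpoints at 34.1 and 47.3% of its length, were 25.7 and 20.9 mean spacings long. On chromosome 2, deserts at 211930429 to 212300393 and 227570763 to 228054885 were 19.4 and 20.8 mean spacings long. Their midpoints lay at 86.8 and 93.2% of its length. These deserts outside the 10 longest were chosen after their values were seen.

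The windows richest in deserts were in the sparse interior. The window on chromosome 1 at 130000001 to 140000000 held 82 merged summits and the left borders of 15 deserts, and 6.64 Mb of its 10 Mb was desert. A window on chromosome 2 from 90000001 held 14 left borders (5.31 Mb of desert), one on chromosome 10 from 40000001 held 14 (5.04 Mb) and one on chromosome 4 from 100000001 held 13 (5.51 Mb). Of the 210 windows, 142 held the left border of at least 1 desert.

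Some deserts were separated from the next by a single site. Among the 506 pairs of neighbouring deserts on a chromosome, 31 shared a border peak and 45 lay within 10 kb of each other, while the median distance between neighbours was 920.5 kb. Deserts within 10 kb of each other formed 37 runs that took in 82 deserts. The longest run, on chromosome 8 at 49881038 to 52362590, joined 3 deserts into 2482 kb broken by just 4 merged summits. Other runs of more than 1500 kb were on chromosome 8 at 42631502 to 44210965 (1579 kb, 4 deserts, 6 summits) and on chromosome 4 at 108617700 to 110150530 (1533 kb, 4 deserts, 3 summits). The 31 peaks between 2 deserts had a median fold enrichment of 8.81, and 23 of them were overlapped by a peak of both replicates, where 76.5% of all merged peaks were.

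The replicate lists were not empty inside the deserts. Replicate 1 had 581 peaks there and replicate 2 had 109, leaving out those that overlap a border peak. None of them overlapped a merged peak, a property that the rule fixes apart from the borders. This gave 3.12 peaks per Mb in replicate 1 and 0.585 in replicate 2 (mean 1.85 ± 1.79, SD, n = 2), against 38.5 and 31.5 per Mb outside deserts (mean 35.0 ± 4.96). The merged list was made from these same libraries, so low values inside deserts follow from the choice of the stretches.

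A closer measure is the density of replicate peaks that overlap no merged peak, since the merged list did not keep them in either place. Such peaks made up 16.6% of replicate 1 and 7.52% of replicate 2. In replicate 1 there were 3.12 per Mb inside deserts and 4.82 per Mb outside deserts in the same 10 Mb windows, 1.55 times as many. In replicate 2 the densities were 0.585 inside and 1.34 outside, 2.30 times as many. The density inside was the lower one on 10 of 10 chromosomes in each replicate. Both replicates entered the merged list, and its summits decided what counts as inside. The densities are therefore given as a description, with no test.

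**Figure D3:**
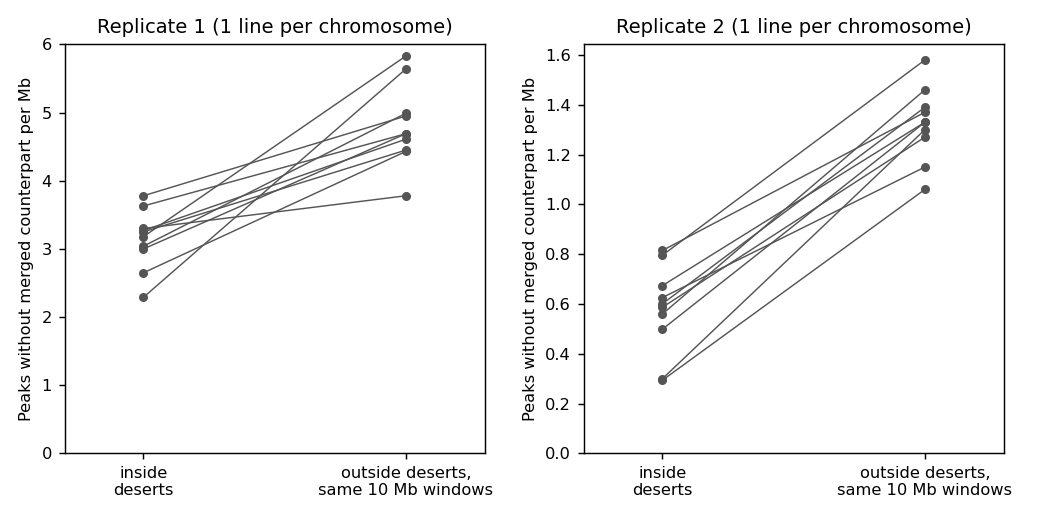
Peaks of replicate 1 (left panel) and replicate 2 (right panel) that overlap no merged peak, in peaks per Mb, inside deserts and outside them in the same 10 Mb windows, with 1 line per chromosome. On every chromosome the value inside deserts is the lower one; over all chromosomes the densities are 3.12 and 4.82 in replicate 1 and 0.585 and 1.34 in replicate 2.

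Replicate peaks inside deserts were weak, narrow and rarely shared. The merged list came from the same libraries, so these traits follow at least in part from the choice of the stretches. Their median fold enrichment was 5.28 in replicate 1 and 5.35 in replicate 2, against 7.57 and 7.29 for the whole lists and 5.38 and 5.35 for the peaks outside deserts that also lacked a merged counterpart. Median widths were 75 and 76 bp inside, against 87 and 91 bp for those other unmatched peaks. Peaks under 130 bp made up 94.3% of the inside peaks of replicate 1 and 89.9% of those of replicate 2, against 74.9 and 70.4% of the other unmatched peaks. The median −log10 q inside was 6.86 in replicate 1 and 7.53 in replicate 2, against 9.55 and 10.4 for the other unmatched peaks. Requiring a −log10 q of at least 10 left 0.338 peaks per Mb in replicate 1 and 0.107 in replicate 2.

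Only 5 of the 581 inside peaks of replicate 1 overlapped a peak of replicate 2, or 0.861% of them and 4.59% of the 109 of replicate 2. Among all replicate peaks that overlap no merged peak, 2.98% in replicate 1 and 8.61% in replicate 2 overlapped the other replicate. Among all peaks, merged or not, these shares were 69.5% and 86.5%. The choice of the stretches enters this comparison too. The 5 shared positions were on chromosomes 6, 7 and 9, and 3 of them were on chromosome 7, at 58224975 to 58225077, 61644334 to 61644717 and 82076974 to 82077218 as called in replicate 1. Replicate 1 gave them fold enrichments between 5.01 and 5.65, and replicate 2 between 5.01 and 5.58. The strongest inside peaks were found in 1 replicate each. In replicate 1 the 5 strongest ranged from 6.84 to 7.20, led by peaks on chromosome 5 at 98634049 to 98634131 and on chromosome 6 at 5580747 to 5580838. In replicate 2 the 5 strongest ranged from 6.07 to 6.43, led by one on chromosome 6 at 5754486 to 5754569, inside the same 456 kb desert as the second of replicate 1.

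Inside peaks lay nearer to the borders than an even spread would place them. The median distance to the nearer border was 0.205 of the desert's length in replicate 1 and 0.142 in replicate 2, where an even spread gives 0.25. Within 10 kb of a border lay 67 of the 581 peaks of replicate 1 (11.5%) and 24 of the 109 of replicate 2 (22.0%), and an even spread puts 5.54% there.

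Neither replicate had a peak inside 150 deserts (29.1%, Wilson 95% interval 25.3 to 33.1%, which covers counting error only), which together spanned 49.5 Mb. Replicate 1 alone had a peak in 271 (52.5%), replicate 2 alone in 27 (5.23%) and both in 68 (13.2%). A replicate 1 peak thus stood in 339 deserts and a replicate 2 peak in 95. The largest number in 1 desert was 7 for replicate 1 and 3 for replicate 2. The 5 longest empty deserts were on chromosome 9 at 74990483 to 75938103 (948 kb), chromosome 5 at 106860171 to 107523280 (663 kb), chromosome 2 at 96719547 to 97371311 (652 kb), chromosome 4 at 110169907 to 110789888 (620.0 kb) and chromosome 3 at 85373881 to 85932791 (559 kb). By length, 33.6% of deserts of 250 to 300 kb were empty, 31.5% of those of 300 to 400 kb, 13.5% of those of 400 to 500 kb and 18.0% of those over 500 kb. A longer desert has more room for a peak. Per Mb, replicate 1 had 3.39, 3.14, 3.30 and 2.55 inside peaks in these 4 classes, and replicate 2 had 0.798, 0.568, 0.214 and 0.480, so the shortest class held the most per Mb in each replicate.

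With the replicate peaks added as further summits, 296 of the 516 deserts still contained a stretch of more than 250 kb without any, and 23 contained one of more than 500 kb. The longest desert then shrank to 1216 kb, the stretch on chromosome 6 at 11535596 to 12751401. The 948 kb desert on chromosome 9 was then the second longest. Pooling the summits of all 3 lists gave 310 deserts, which covered 106 Mb.

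Each replicate's own list gave its own deserts. Replicate 1 had 361, covering 124 Mb, and replicate 2 had 649, covering 237 Mb, against 516 in the merged list. Of the replicate 1 desert length 91.1% was also desert in replicate 2, and of the replicate 2 desert length 47.6% was desert in replicate 1. Of the merged deserts, 317 overlapped an interval over 250 kb between replicate 1 summits, 487 one between replicate 2 summits, and 304 (58.9%) both. An overlap of any length counted, also where the interval lay almost wholly in an adjoining desert. For the longest desert, on chromosome 6, the longest interval was 1216 kb in replicate 1 and 1745 kb in replicate 2. For the second, on chromosome 8, it was 745 kb in replicate 1 and 1558 kb in replicate 2, so the whole stretch was empty in replicate 2. For the third, on chromosome 9, it was 1311 kb in replicate 1 and 891 kb in replicate 2. Among the 10 longest deserts the replicate 2 interval was the longer by over 1 kb in 8 and the replicate 1 interval in 1; the replicate 1 list holds more peaks.

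The 516 deserts were bordered by 1001 merged peaks, 1.50% of all. As a group the border peaks resembled other merged peaks. Their median fold enrichment was 8.03 (quartiles 6.07 and 10.8), against 7.49 for all merged peaks and 7.82 for other peaks of the same 10 Mb windows. Their median width was 213 bp, against 220.0 bp for all and 217 bp in the same windows. Of the border peaks 255 (25.5%) were in the strongest quintile of merged peaks by fold enrichment, which holds 20.0% of all by construction, and 22.6% of other peaks of the same windows were. Peaks under 130 bp numbered 275 (27.5%, Wilson 95% interval 24.8 to 30.3%), against 22.8% of all and 24.7% in the same windows. No test was made over peaks, which are not replicates, and the Wilson intervals here and below cover counting error only.

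Most border peaks recurred. Of the 1001, 742 (74.1%, Wilson 95% interval 71.3 to 76.7%) were overlapped by a peak of both replicates, against 76.5% of all merged peaks and 75.5% of other peaks of the same windows. Both borders recurred in this way for 294 deserts (57.0%), 1 border did for 177, and neither did for 45. A further 21 border peaks (2.10%) were overlapped by neither replicate list, against 1.74% of all merged peaks. Recurrence was lower beside longer deserts: 76.0% of the borders of deserts of 250 to 300 kb recurred and 65.3% of those over 500 kb.

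Among weak peaks, those at borders had the lower share of recurrence. In the weakest quintile (the lowest of 5 equal groups by fold enrichment), 12.7% of the 197 border peaks were overlapped by both replicates, against 24.1% of all 13360 peaks, and the median width was 88.0 bp against 129 bp. In the strongest quintile, 98.4% of the 255 border peaks and 98.9% of all peaks were. The difference was graded along the length of the interval beside a peak rather than limited to deserts. By the longer of a peak's 2 neighbouring intervals, recurrence in the weakest quintile was 33.4% for intervals up to 10 kb, 24.6% for 10 to 25 kb, 21.8% for 25 to 50 kb, 18.8% for 50 to 100 kb, 15.4% for 100 to 250 kb and 12.7% (Wilson 95% interval 8.75 to 18.1%) for the border peaks. Median width in the same weak peaks ran from 162 bp through 138, 118, 110.0 and 99.0 bp to 88.0 bp, and a wider peak meets the overlap rule more easily, a part in the result that was not tested. Over the same classes the share of all peaks in the strongest quintile went up, from 10.1% for intervals up to 10 kb to 26.3% for 100 to 250 kb, with 25.5% at the borders.

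**Figure D4:**
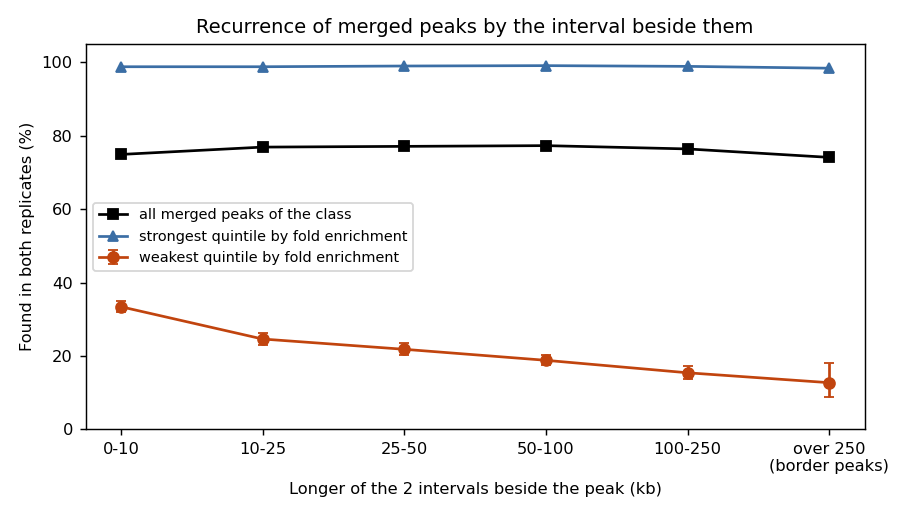
Share of merged peaks overlapped by a peak of both replicates (vertical axis, percent) by the longer of the 2 intervals beside the peak (horizontal axis, kb), for the weakest quintile by fold enrichment (circles, bars are Wilson 95% intervals), the strongest quintile (triangles) and all peaks of the class (squares). The weakest quintile lies at 33.4% for intervals up to 10 kb and at 12.7% at desert borders, while the strongest quintile stays between 98.4 and 99.1%.

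The 3 longest deserts differed in their borders. All 4 border peaks of the 2388 kb and the 1483 kb desert were weak, with fold enrichments of 5.02 to 6.07, and all 4 were overlapped by a replicate 1 peak and by none of replicate 2. If only merged peaks overlapped by both replicates are kept, the first of these deserts extends to 3226 kb (chromosome 6, 11073722 to 14299523) and the other to 1571 kb (chromosome 9, 53590546 to 55161894). The 1558 kb desert on chromosome 8 had borders found in both replicates, with fold enrichments of 7.18 on the left and 13.1 on the right, and kept its length. The empty 948 kb desert on chromosome 9 had a left border of 5.11 that neither replicate list held and a right border of 9.60 that both held.

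Some deserts began at a strong site. The 5 strongest border peaks were all overlapped by a peak of both replicates. The first, on chromosome 8 at 31657386 to 31657559 (174 bp), had a fold enrichment of 29.5 and ranked 41 among all merged peaks; it opened a 654 kb desert. The second, on chromosome 2 at 93764163 to 93764412 (250 bp), had 26.1 and ranked 86. The third, on chromosome 5 at 213151753 to 213152088 (336 bp), had 24.3 and closed a 299 kb desert whose flanks were dense, with 60.1 summits per Mb. The fourth was on chromosome 4 at 135257791 to 135258046 (fold enrichment 22.1) and the fifth on chromosome 9 at 94898821 to 94899013 (20.7). When merged peaks were ranked by fold enrichment, 19 of the first 1000 were border peaks, or 1.90%, against 1.50% of all merged peaks.

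Outward from the borders the density of merged summits fell to a level that then stayed flat. Over the first 10 kb outside the border summit there were 51.0 summits per Mb, against 70.6 within 10 kb on one side of any merged peak. The 51.0 includes sides that face another desert, which lowers it. The 70.6 covers all chromosomes and is not matched for local density. From 10 to 25 kb there were 22.3 per Mb, and all classes from there to 5000 kb held 17.9 to 22.3 per Mb, below the 31.7 of all chromosomes. These classes also take in other deserts. Flanks of neighbouring deserts overlap, so the same summit can be counted more than once. The summit next to a border on its outer side lay at a median distance of 17.6 kb, within 1 kb for 192 of 970 border peaks (19.8%) and beyond 50 kb for 293 (30.2%). For all intervals between merged summits, again not matched for local density, 17.8% were within 1 kb and 20.9% beyond 50 kb. The 31 peaks with a desert on both sides have no outer side and are not among the 970, but both their sides are in the densities per Mb.

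**Figure D5:**
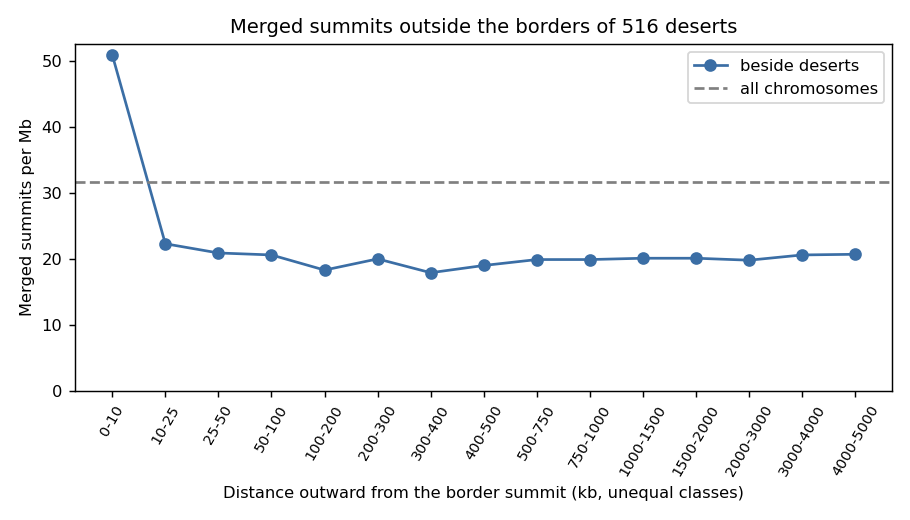
Merged summits per Mb (vertical axis) outside the borders of the 516 deserts, by distance outward from the border summit (horizontal axis, kb, classes of unequal width), with both sides of every desert pooled and the border summit itself left out. The dashed line is the 31.7 summits per Mb of all chromosomes; the first class reaches 51.0 and all others lie between 17.9 and 22.3.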

How the data were processed

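MH-seq peak lists of 2 replicates and a merged list, all of 1 group, were used as deposited. The build is B73 RefGen_v4 and the software named is MACS2, Bowtie2, fastp 0.20.0, SAMtools 1.5, deepTools and ChIPseeker, per the submitters' processing notes. Settings, and how the replicates were merged, are not stated there. Each deposited peak has the authors' fold enrichment (a ratio over background), and −log10 q, and a score that was not used.

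Summits were sorted by chromosome (Python 3.11.15, pandas 2.3.3, numpy 2.4.6, scipy 1.17.1), and intervals over 250 kb were kept. Chromosome lengths are the last peak end in any list, a lower bound. The expected number sums n·exp(−nL/W) over 10 Mb windows, for n summits, window length W and limit L, and assumes independent summits. A peak was called shared at an overlap of at least 1 bp. Replicate peaks overlapping a border peak were not counted as inside. Values for the same windows are weighted by desert length or by number of border peaks.

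No test was made: the summits chose the deserts and there is a single group. Depth is unknown, and the number of replicates limits the precision. Members and measures were chosen with earlier results of these data known. Regions named are the 10 longest deserts, the longest of each chromosome, the 5 longest empty ones, those nearest the limit, the 5 strongest border peaks and the 5 strongest inside peaks per replicate; others are marked. The expected number without joining and the finding of deserts were tested on simulated summits. The expected number with joined summits was not. Alternatives were other length limits, window sizes, peak filters, overlap rules, single replicates and joined summits.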

Additional observations from a re-analysis of the deposited data

How the results depend on the processing

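Limits of 200 and 500 kb gave 1016 and 61 deserts, 446 and 10.9 expected, and 349 and 11 without a replicate peak, and 500 kb gave 65.3% of border peaks found in both replicates. The expected 203 became 507 with summits within 5 kb as 1 site, 341, 415 and 745 with 1, 2 and 10 kb (the last 3 chosen after seeing the data), 24.0 with 1 density over all chromosomes, 221 with 5 Mb and 181 with 20 Mb windows. The replicates' own lists gave 361 to 649 deserts and 123 to 280.2 expected. With the merged deserts kept and peaks of 1 replicate counted, 177 to 421 deserts were without a replicate peak. Inside peaks then numbered 0.585 to 3.12 per Mb. With merged peaks found in both replicates only, there were 755 deserts, 409 expected, 98 without a replicate peak, a border median fold enrichment of 9.29 and, by construction, 100.0% of borders in both replicates. A −log10 q of at least 10 gave 78.4% of borders in both replicates, against 77.8% of all merged peaks so filtered, and a median fold enrichment of 8.39. An overlap of 50% of both peaks gave 67.3% for borders, against 68.3% for all merged peaks, and summits within 50 bp gave 60.7%, against 63.8%. Observed deserts exceeded the expected number in all settings except joining within 10 kb, where the ratio was 0.693. Beyond what each setting removes by construction, the cause was not tested. No paired analysis was possible because, by their labels, both libraries belong to 1 group. Absence of a peak near the fold enrichment limit does not show absence of hypersensitivity.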
